A study of Rattus norvegicus with 8 samples.

Results

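Dual-specificity phosphatases and Sprouty proteins are the inhibitors that mitogen-activated protein kinase signalling switches on against itself. The 10 genes described here are Dusp1, Dusp4, Dusp5, Dusp6, Dusp8, Dusp10, Dusp16, Spry1, Spry2 and Spry4, taken by gene name from any of 5 deposited tables of differential expression that together list 9025 genes. In neonatal rat ventricular cardiomyocytes with DMSO, the authors called 7 of them lower in ischemia than in normoxia and 2 higher, Dusp4 and Dusp16. Of all 16406 genes the authors adjusted there, 21.2% were called lower and 19.7% higher. Genes entered the tables only by differing in some comparison. The calls of both rises were lost in refits without ischemia DMSO replicate 1. The authors deposited no call of any of the 10 for eugenol.

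The cells were ventricular cardiomyocytes of Sprague Dawley rats taken 2 to 3 days after birth, and RNA was collected after 24 hours of treatment. The 4 groups were ischemia with eugenol, ischemia with DMSO, normoxia with eugenol and normoxia with DMSO, with 2 libraries each. Ischemia was an atmosphere with 1% oxygen, per the labels' protocols, and eugenol, a phenolic compound of clove oil, was given at 10 µM, while the cells not given it received DMSO. Nothing in the labels ties the 2 libraries of a group to separate cell preparations, so the p-values measure the spread between these libraries, which may be technical. The cultures are primary and no sort is named, so other heart cells can be present.

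Growth factors acting on receptor tyrosine kinases switch on Ras and then the kinases Raf, MEK and ERK, while stress and cytokines switch on the p38 and JNK kinases. Dual-specificity phosphatases end the signal by removing both phosphates from the activation loop of ERK, p38 or JNK, and several of them are induced by the very kinases they silence. Sprouty proteins act further up, at the membrane, where they restrain Ras and Raf activation after growth factor stimulation. In the heart these brakes limit growth signalling and the stress response of the myocyte.

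All 10 genes are protein-coding in the deposited annotation. Of the 10, 7 had counts in all 8 libraries, as did 6582 of the 9025 genes. Dusp8 and Dusp16 had counts in the 4 DMSO libraries, and Dusp10 had counts in ischemia with eugenol and normoxia with DMSO. Each table lists only genes with an unadjusted p under 0.05, so a gene had to differ between some pair of groups to enter, and a gene that a table leaves out has no call there. The read totals behind the deposited FPKM values were 14.7 to 17.7 megareads per library, and the gene with the fewest reads, Dusp10, still had 134 to 281 reads. Levels are given below as reads per megaread (RPM), the deposited count over that total, and levels of different genes are compared only by the deposited FPKM, which is per gene length.

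The cultures, labelled as cardiomyocytes, held abundant sarcomere transcripts: 10 of 12 cardiomyocyte markers had counts in all libraries and none of them was at 0. Their summed level was 23151 to 25292 RPM in ischemia with eugenol, 25538 to 27769 RPM in ischemia with DMSO, 47458 to 49269.6 RPM in normoxia with eugenol and 45322 to 45657 RPM in normoxia with DMSO. The summed markers of the other heart cells were lower in ischemia as well, but abundant genes weigh most in such sums. Eng, with a mean of 82.0 RPM in ischemia with DMSO and 195 RPM in normoxia with DMSO, made up most of the endothelial sum. The fibroblast marker Vim was higher in ischemia instead, with a mean of 2746 RPM with DMSO against 1449 RPM in normoxia with DMSO. The 4 of 10 endothelial markers with counts summed to 72.0 to 93.4 RPM in ischemia with eugenol, 84.5 to 95.4 RPM in ischemia with DMSO, 229.8 to 245 RPM in normoxia with eugenol and 202 to 225 RPM in normoxia with DMSO. The 6 of 10 macrophage markers summed to 29.1 to 34.7, 35.8 to 38.1, 77.7 to 81.1 and 83.4 to 91.8 RPM in those groups in the same order. The 9 of 12 fibroblast markers summed to 9397 to 10264, 10761 to 11078, 17050.1 to 17998 and 15365 to 15612 RPM, and the 7 of 8 smooth muscle markers to 3636 to 3675, 4084 to 4236, 6669 to 7374 and 6145 to 7371 RPM. Their part in the levels of the 10 genes was not tested, and in RNA from whole cultures fewer cells of a type and less RNA per cell cannot be told apart.

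The start regions of the genes are shown first, since part of the induction of these feedback genes runs through short elements next to the start site. The 250 bases before the start were read from RefSeq (rat build GRCr8), where 9 of the 10 genes matched with 10 windows in all, Spry2 having 2. The 4 windows printed are those of Dusp1 and Spry1, which had the largest falls in ischemia, Dusp5, an ERK phosphatase that fell beside them, and Dusp16, one of the genes that rose. They lie at chr10:17184603-17184852 on the plus strand (Dusp1), chr2:122485097-122485346 on the plus strand (Spry1), chr1:262543524-262543773 on the plus strand (Dusp5) and chr4:169361509-169361758 on the minus strand (Dusp16). Each is written 5′ to 3′ towards the gene, with capitals for TGACG (the core of the cAMP response element, including its palindrome TGACGTCA), for ACGTG (the core of the hypoxia response element) and for the CArG box bound by serum response factor, on either strand and run together where they overlap.
Dusp1: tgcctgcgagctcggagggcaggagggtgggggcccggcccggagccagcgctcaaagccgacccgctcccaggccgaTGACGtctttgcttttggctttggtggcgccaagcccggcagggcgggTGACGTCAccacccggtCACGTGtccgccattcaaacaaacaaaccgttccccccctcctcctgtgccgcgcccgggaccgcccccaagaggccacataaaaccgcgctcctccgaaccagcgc
Spry1: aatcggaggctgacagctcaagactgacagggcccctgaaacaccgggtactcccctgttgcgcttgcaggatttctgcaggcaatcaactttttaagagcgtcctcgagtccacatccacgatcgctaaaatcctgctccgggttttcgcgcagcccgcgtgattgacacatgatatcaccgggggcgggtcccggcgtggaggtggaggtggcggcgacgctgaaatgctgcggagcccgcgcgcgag
Dusp5: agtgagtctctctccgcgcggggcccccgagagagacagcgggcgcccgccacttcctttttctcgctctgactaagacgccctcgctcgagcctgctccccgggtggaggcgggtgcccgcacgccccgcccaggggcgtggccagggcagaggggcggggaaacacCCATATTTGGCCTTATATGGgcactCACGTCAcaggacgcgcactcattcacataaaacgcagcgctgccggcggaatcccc
Dusp16: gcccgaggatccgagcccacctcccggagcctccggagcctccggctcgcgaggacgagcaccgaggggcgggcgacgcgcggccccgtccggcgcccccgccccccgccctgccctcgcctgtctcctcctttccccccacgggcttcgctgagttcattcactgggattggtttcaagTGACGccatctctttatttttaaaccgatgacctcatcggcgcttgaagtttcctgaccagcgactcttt

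The Dusp1 window held TGACGTCA at 124 bases before the start and a further TGACG at 172 bases before it. The same window held CACGTG, read as ACGTG on both strands from 107 and 106 bases before the start. The Dusp5 window held a pair of adjoining CArG boxes, at 82 and 72 bases before the start, and a run in which ACGTG (57 bases) and TGACG (55 bases) overlap. Dusp16 had TGACG at 70 bases, and Spry2 had TGACG at 219 bases in one window and ACGTG at 60 bases in the other. The windows of Spry1, Dusp6, Dusp8 and Dusp10 held none of these letters, and no window described here held TGANTCA, the AP-1 element. The Spry4 window is not described, because RefSeq places that gene on the minus strand and the deposited annotation on the plus strand. Among all 33469 windows of that length, 18.2% held TGACG, 1.59% TGACGTCA, 16.6% ACGTG, 6.34% TGANTCA and 1.497% a CArG box. The matches describe the sequence and are not shown to be bound.

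The first question was what ischemia did to these genes without eugenol. In ischemia with DMSO against normoxia with DMSO, the authors' deposited table lists 9 of the 10 genes, of which 7 fell and 2 rose at an adjusted p under 0.05. The falls ran from 1.49-fold for Spry2 to 3.01-fold for Dusp1, and the rises were 1.36-fold for Dusp4 and 1.42-fold for Dusp16, all in the authors' deposited table. Over all 16406 genes the authors adjusted, 40.9% were called, 19.7% higher and 21.2% lower, and the count over these genes is not evidence about them as a set because only differing genes were listed. The libraries of the 2 groups did not overlap for any of the 9, as for 99.3% of the genes with counts in these libraries.

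**Figure D1:**
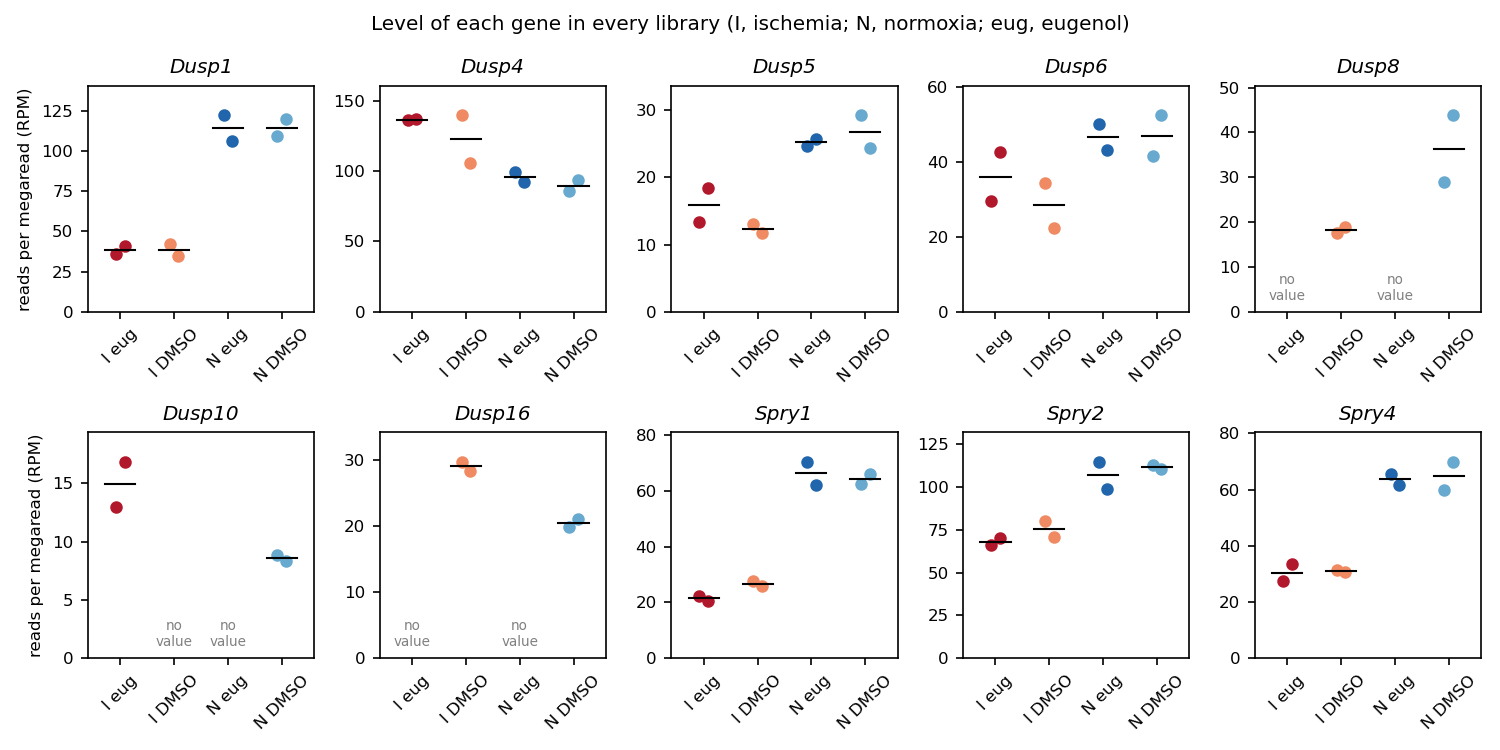
Level of each of the 10 genes in every library, in reads per megaread (RPM, linear axes from 0), for ischemia with eugenol (I eug), ischemia with DMSO (I DMSO), normoxia with eugenol (N eug) and normoxia with DMSO (N DMSO). Points are libraries and bars are the mean of 2. Dusp1, Spry1 and Spry4 sit lower in all 4 ischemia libraries than in all 4 normoxia libraries, Dusp4 sits higher in all 4, and "no value" marks groups in which no table lists the gene.

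Dusp1, a nuclear phosphatase of p38, JNK and ERK that is transcribed within minutes of stimulation, changed most (gene ENSRNOG00000003977, chromosome 10, 16970626 to 16973418, plus strand as deposited). It had 36.0 and 41.1 RPM in ischemia with eugenol, 41.9 and 34.6 RPM in ischemia with DMSO, 122 and 106 RPM in normoxia with eugenol, and 109 and 120.2 RPM in normoxia with DMSO. The 4 ischemia libraries lay close together, and the highest of them was far below the lowest normoxia library. The log2 fold change in the authors' deposited table was -1.59 for ischemia with DMSO against normoxia with DMSO, at an adjusted p of 1.17e-28. The edgeR refit over all 8 libraries gave -1.58 with a 95% interval of -1.84 to -1.33.

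Dusp4, a nuclear phosphatase of ERK and JNK closely related to Dusp1, went the other way (ENSRNOG00000011921, chromosome 16, 61078175 to 61091169, minus strand). Its libraries had 136 and 137 RPM in ischemia with eugenol, 139.8 and 106 RPM in ischemia with DMSO, 99.8 and 92.4 RPM in normoxia with eugenol, and 85.9 and 93.7 RPM in normoxia with DMSO. All 4 ischemia libraries were above all 4 normoxia libraries, but the 2 of ischemia with DMSO were 1.32-fold apart. The authors' deposited table gives a log2 fold change of 0.45 at an adjusted p of 0.00537. The size of the rise depended on 1 library: without ischemia DMSO replicate 1 the edgeR refit gave 0.24, and the call was lost. The ischemia DMSO library that remained, at 106 RPM, was still above all 4 normoxia libraries.

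Dusp5 and Dusp6 both act on ERK with little effect on p38 or JNK, Dusp5 in the nucleus and Dusp6 in the cytoplasm. Dusp5 (ENSRNOG00000014061, chromosome 1, 274245184 to 274258595, plus strand) had 13.4 and 18.4 RPM in ischemia with eugenol, 13.0 and 11.7 RPM in ischemia with DMSO, 24.7 and 25.8 RPM in normoxia with eugenol, and 29.2 and 24.4 RPM in normoxia with DMSO. Every ischemia library was below every normoxia library. The authors' deposited table gives a log2 fold change of -1.12 at an adjusted p of 7.54e-07.

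Dusp6 (ENSRNOG00000023896, chromosome 7, 41475163 to 41479392, plus strand) varied more within groups. It had 29.4 and 42.7 RPM in ischemia with eugenol, 34.4 and 22.3 RPM in ischemia with DMSO, 50.04 and 43.0 RPM in normoxia with eugenol, and 41.6 and 52.4 RPM in normoxia with DMSO. The ischemia DMSO libraries were both below the normoxia DMSO libraries, while 1 ischemia eugenol library lay above a normoxia DMSO library. The fall was -0.73 on the log2 scale in the authors' deposited table, at an adjusted p of 0.00148. The call was lost in edgeR refits with DESeq2 size factors (-0.49, adjusted p 0.0608), without ischemia DMSO replicate 2 (-0.45, adjusted p 0.146) and without normoxia DMSO replicate 2 (-0.55, adjusted p 0.0926).

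Dusp8, Dusp10 and Dusp16 prefer JNK and p38 over ERK. Dusp8 (ENSRNOG00000029394, chromosome 1, 215030429 to 215033460, minus strand) had 17.5 and 18.8 RPM in ischemia with DMSO, against 28.8 and 43.8 RPM in normoxia with DMSO. Both ischemia libraries were lower, although the normoxia libraries were 1.52-fold apart. The authors' deposited table gives -1.002 on the log2 scale at an adjusted p of 1.59e-05.

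Dusp16 (ENSRNOG00000006628, chromosome 4, 168472412 to 168517177, minus strand) had 29.6 and 28.3 RPM in ischemia with DMSO, against 19.8 and 21.0 RPM in normoxia with DMSO. Both ischemia libraries were higher, with little spread inside either group. The rise was 0.51 on the log2 scale at an adjusted p of 0.0165 in the authors' deposited table. In an edgeR fit of those 2 groups alone it kept its size without ischemia DMSO replicate 1 but missed the threshold, at 0.48 and an adjusted p of 0.0588.

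Dusp10 (ENSRNOG00000004003, chromosome 13, 104284660 to 104321455, plus strand) can be read only between ischemia with eugenol and normoxia with DMSO, groups that differ in both oxygen and eugenol. It had 13.0 and 16.8 RPM in ischemia with eugenol, against 8.88 and 8.33 RPM in normoxia with DMSO. Both ischemia eugenol libraries were higher, by 0.78 on the log2 scale at an adjusted p of 0.0126 in the authors' deposited table. In an edgeR fit of those 2 groups alone, leaving out ischemia eugenol replicate 2 gave 0.59 at an adjusted p of 0.0843.

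All 3 Sprouty genes fell in ischemia. Spry1 (ENSRNOG00000025371, chromosome 2, 124400679 to 124405331, plus strand) had 22.2 and 20.7 RPM in ischemia with eugenol, 27.6 and 25.8 RPM in ischemia with DMSO, 70.3 and 62.1 RPM in normoxia with eugenol, and 62.4 and 66.0 RPM in normoxia with DMSO. Its 2 ischemia eugenol libraries were the lowest of the 8, and no ischemia library reached the normoxia range. The authors' deposited table gives -1.27 on the log2 scale for ischemia with DMSO against normoxia with DMSO, at an adjusted p of 2.10e-16.

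Spry4 (ENSRNOG00000013851, chromosome 18, 32594958 to 32609864, plus strand as deposited) had 27.3 and 33.6 RPM in ischemia with eugenol, 31.4 and 30.7 RPM in ischemia with DMSO, 65.4 and 61.7 RPM in normoxia with eugenol, and 59.7 and 69.8 RPM in normoxia with DMSO. The DMSO libraries in ischemia lay inside the wider range of the eugenol ones, and no ischemia library reached the normoxia range. The log2 fold change in the authors' deposited table was -1.06, at an adjusted p of 1.84e-11.

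Spry2 (ENSRNOG00000010058, chromosome 15, 90172975 to 90175802, minus strand) fell least of the Sprouty genes. It had 65.8 and 70.1 RPM in ischemia with eugenol, 79.9 and 70.5 RPM in ischemia with DMSO, 115 and 99.0 RPM in normoxia with eugenol, and 113 and 111 RPM in normoxia with DMSO. Here too every ischemia library was below every normoxia library. The authors' deposited table gives -0.58 on the log2 scale at an adjusted p of 1.45e-05.

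These fold changes are relative to the read total of each library, and that choice bears on the mild ones. In the edgeR refit the median log2 fold change of the 6582 genes, ischemia with DMSO against normoxia with DMSO, was -0.31 with these totals, -0.23 with TMM scaling and -0.08 with DESeq2 size factors. Relative to the median with totals, Dusp1 was at -1.27, Spry1 at -0.95, Dusp5 at -0.81, Spry4 at -0.75, Dusp6 at -0.41 and Spry2 at -0.26, while Dusp4 was at 0.76. No member changed direction in an oxygen comparison under any scaling tried.

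The second question was whether ischemia had the same effect with eugenol present. In ischemia with eugenol against normoxia with eugenol, the authors' deposited table lists 7 of the 10 genes, of which 5 fell (Dusp1, Spry1, Spry4, Dusp5 and Spry2), 1 rose (Dusp4) and Dusp6 was not called. The background there was 41.1% of 16021 genes called, 19.6% higher and 21.5% lower. The libraries of the 2 groups stood apart for all 7 listed genes, as for 99.6% of the genes with counts there. The log2 fold changes in the authors' deposited table were -1.57 for Dusp1 (adjusted p 6.50e-30), -1.63 for Spry1 (8.04e-25), -1.07 for Spry4 (4.80e-11), -0.67 for Dusp5 (0.00608), -0.66 for Spry2 (9.26e-07) and 0.50 for Dusp4 (1.90e-05). Dusp6 was listed at -0.37 with an adjusted p of 0.0969 in the authors' deposited table. Without ischemia eugenol replicate 2, its higher library, the edgeR refit put Dusp6 at -0.66 with an adjusted p of 0.0345.

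**Figure D2:**
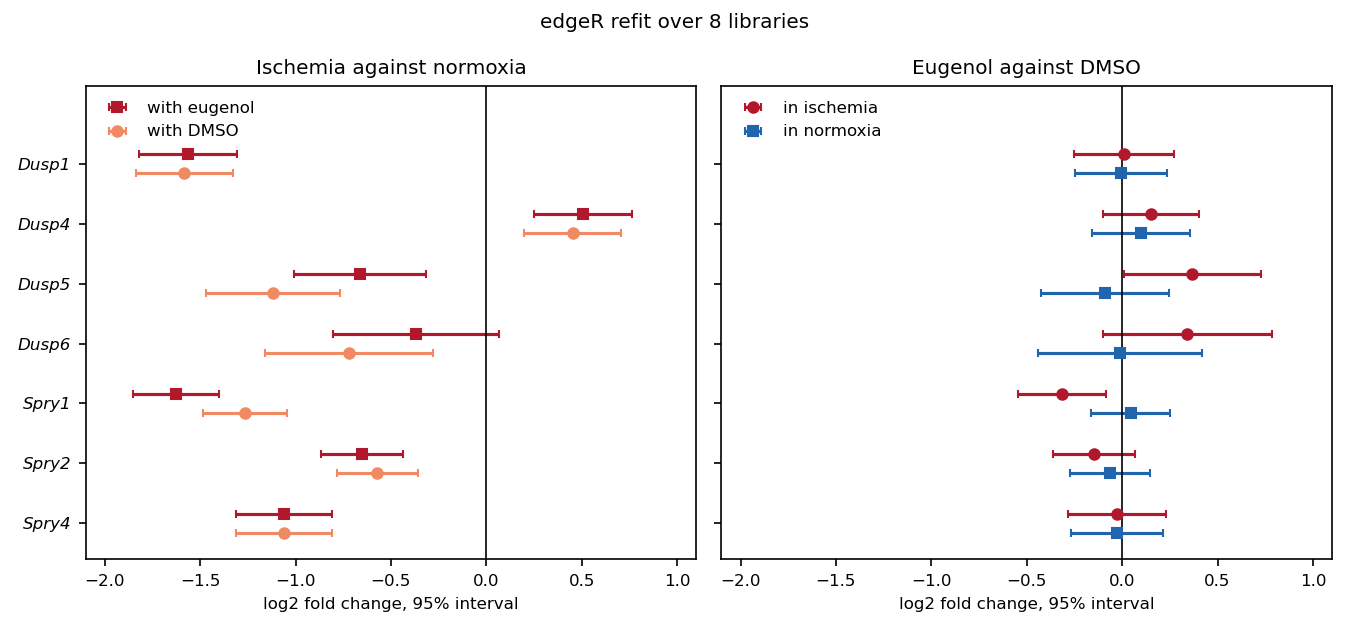
Log2 fold changes with 95% intervals from the edgeR refit over 8 libraries, for the 7 genes with counts in all of them. On the left, ischemia against normoxia with eugenol (squares) and with DMSO (circles); on the right, eugenol against DMSO in ischemia (circles) and in normoxia (squares). Dusp1 lies at -1.56 with eugenol and -1.58 with DMSO, Dusp4 alone lies above 0 in the left panel, and in the right panel the intervals of Spry1 and Dusp5 in ischemia leave out 0 before adjustment for multiple testing.

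Ischemia with eugenol was also compared with normoxia with DMSO, a contrast that shares its ischemia libraries with the comparison just given and its normoxia libraries with the one before it. The authors' deposited table lists 7 of the genes, 5 called lower and 2 higher, beside 39.3% of 16036 genes called, 18.5% higher and 20.8% lower. The libraries stood apart for these 7 genes but overlapped for Dusp6, which also had counts there. They stood apart for 98.6% of all genes with counts there. The falls were -1.58 for Dusp1, -1.59 for Spry1, -1.10 for Spry4, -0.76 for Dusp5 and -0.73 for Spry2 on the log2 scale, and the rises 0.60 for Dusp4 and 0.78 for Dusp10, in the authors' deposited table. Dusp5 missed the threshold in a fit of those 2 groups alone without ischemia eugenol replicate 1, where edgeR gave -0.54 at an adjusted p of 0.0726. Dusp6 was not listed, and the edgeR refit gave -0.38 with a 95% interval of -0.81 to 0.05 (adjusted p 0.198).

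The third question was what eugenol itself did. None of the 10 genes is listed in either eugenol table, where the authors called 0.121% of 18972 genes in ischemia and 0.181% of 14362 genes in normoxia. In the edgeR refit 0 of the 7 genes with counts in all libraries passed an adjusted p of 0.05 in either oxygen condition, beside 0.0152% of the 6582 genes in ischemia and 0.0456% in normoxia, and DESeq2 called 0 of the 7 as well. At an unadjusted p under 0.05 the edgeR refit picked out 2 of the 7 in ischemia, Spry1 and Dusp5, beside 3.68% of the 6582 genes. In normoxia it picked out 0 of the 7, beside 4.16% of the genes.

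In ischemia, Spry1 differed by -0.32 on the log2 scale between eugenol and DMSO, which did not pass the adjustment (SE 0.106, 95% interval -0.55 to -0.09, edgeR unadjusted p 0.0110, adjusted p 1). As the library values above show, Spry1 was lower in 2 of 2 eugenol libraries than in either DMSO library. Dusp5 differed by 0.37 (95% interval 0.01 to 0.73, edgeR unadjusted p 0.0455, adjusted p 1), with both eugenol libraries above both DMSO libraries. Dusp6 differed by 0.34 (95% interval -0.10 to 0.79, edgeR adjusted p 1), and its libraries overlapped between the treatments. Spry2 differed by -0.15 (-0.36 to 0.07), Dusp4 by 0.15 (-0.10 to 0.40), Spry4 by -0.03 (-0.29 to 0.23) and Dusp1 by 0.01 (-0.25 to 0.27).

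The libraries of the 2 ischemia groups stood apart for 3 of these 7 genes, Dusp5 higher and Spry1 and Spry2 lower with eugenol, against 30.8% of all genes with counts there. A 2-against-2 exact permutation test cannot give a two-sided p below 0.333. In an edgeR fit of the 2 ischemia groups alone, leaving out ischemia eugenol replicate 1 called Dusp6 higher with eugenol, at 0.58 and an adjusted p of 0.00311. Eugenol is then 1 library, assumed to vary like the DMSO libraries, and the same fit called 257 of 7167 genes, against 11 of 7168 with both libraries. The library left out had the lower of the 2 Dusp6 values in its group.

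In normoxia the eugenol differences of the 7 genes lay between -0.09 (Dusp5) and 0.10 (Dusp4) on the log2 scale. Their 95% intervals ran at most from -0.44 (Dusp6) to 0.42 (Dusp6). For 0 of the 7 genes did the normoxia libraries stand apart by treatment, against 34.1% of all genes with counts in them.

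The difference between the eugenol effects in ischemia and in normoxia was tested as an interaction in the edgeR refit. It was -0.36 for Spry1 (95% interval -0.67 to -0.05, unadjusted p 0.0256), 0.46 for Dusp5 (-0.03 to 0.95, unadjusted p 0.0657) and 0.35 for Dusp6 (-0.26 to 0.97). The other 4 genes lay between -0.08 (Spry2) and 0.05 (Dusp4). All 7 had an edgeR adjusted p of 0.999816, so an effect of eugenol that depends on oxygen was not shown for any of them. Of all 6582 genes, 3.59% had an unadjusted p under 0.05 for the interaction and 0.0152% passed after adjustment.

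Per gene length, Spry2 had the highest mean level in all 4 groups, and the order of the genes below it differed between ischemia and normoxia. In normoxia with DMSO, Spry2 (61.2 and 62.2 FPKM) overlapped Dusp1 (56.4 and 62.1 FPKM). Spry1 (25.1 to 26.5 FPKM) and Dusp4 (21.6 to 23.6 FPKM) followed. Then came Dusp8, which overlapped Dusp4, and Dusp6, which overlapped Dusp8, followed by Spry4, Dusp5, Dusp16 and, lowest, Dusp10 at 3.08 to 3.29 FPKM.

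In ischemia with DMSO, Spry2 still led with 38.9 and 44.1 FPKM, but Dusp4 (26.6 to 35.2 FPKM) came next, above Dusp1 (17.9 to 21.6 FPKM). Dusp16 (11.9 to 12.4 FPKM) followed, above Spry1 (10.4 to 11.1 FPKM) without overlap. Dusp6 overlapped Dusp16, Spry1 and Dusp8, and Spry4 and Dusp5 were lowest. With eugenol the order in ischemia was again Spry2, Dusp4 and Dusp1, then Dusp6, Spry1, Dusp5, Spry4 and Dusp10, the last 3 overlapping. With eugenol in normoxia, Spry2 and Dusp1 again overlapped at the top and Spry1 overlapped Dusp4.

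**Figure D3:**
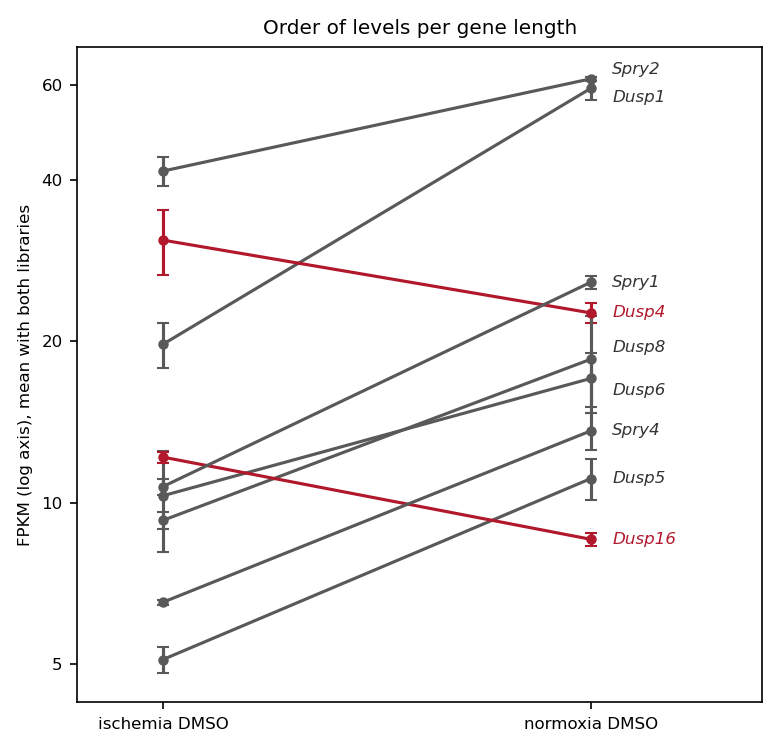
Level per gene length (FPKM, log axis) in ischemia with DMSO (left) and normoxia with DMSO (right), for the 9 genes with values in both. Points are means and bars reach to both libraries; red marks the 2 genes called higher in ischemia. Dusp4 lies below Spry1 in normoxia and above Dusp1 in ischemia, where Dusp1 averaged 19.7 FPKM.

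The fall of Dusp1 beside the milder rise of Dusp4 can be put as shares of a summed FPKM. The sum covers 4 phosphatases that act on ERK, Dusp1, Dusp4, Dusp5 and Dusp6, a grouping chosen after their values were seen. It leaves out other family members, among them Dusp2 and Dusp7. Dusp1 averaged 19.7 FPKM in ischemia with DMSO against 59.2 FPKM in normoxia with DMSO, and Dusp4 30.9 against 22.6 FPKM. The Dusp4 share thus follows the falls of the other genes, mainly Dusp1, more than its own rise. Dusp4 made up 46.7% ± 4.16 in ischemia with eugenol, 46.7% ± 0.531 in ischemia with DMSO, 21.9% ± 0.540 in normoxia with eugenol and 20.5% ± 0.00979 in normoxia with DMSO (SD, n = 2 each). Dusp1 made up 26.9% ± 0.0371, 30.0% ± 1.53, 53.3% ± 1.154 and 53.8% ± 0.351 in those groups (SD, n = 2 each). The 4 together summed to 74.0 ± 6.88 FPKM in ischemia with eugenol, 66.0 ± 12.2 FPKM in ischemia with DMSO, 110.4 ± 8.71 FPKM in normoxia with eugenol and 110.0 ± 6.77 FPKM in normoxia with DMSO. Dusp1 had the largest share in normoxia, and Dusp4 had the largest share of a smaller sum in ischemia.

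Within the Sprouty family, Spry2 made up 71.4% ± 0.246 of the summed FPKM in ischemia with eugenol, 70.6% ± 1.09 in ischemia with DMSO, 59.6% ± 0.745 in normoxia with eugenol and 61.1% ± 1.80 in normoxia with DMSO (SD, n = 2 each). The sum itself was 52.6 ± 2.15 FPKM in ischemia with eugenol, 58.8 ± 4.29 FPKM in ischemia with DMSO, 98.9 ± 8.98 FPKM in normoxia with eugenol and 101 ± 1.76 FPKM in normoxia with DMSO. Spry2 thus made up a larger share of a smaller pool in ischemia.

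For each of the 7 genes with counts in all libraries, the gene with the most similar course over the 8 libraries was sought among 6034 genes, by the root mean square difference of centred log2(RPM + 0.5). Dusp1 and Spry1 differed from each other by 0.161 on that measure, Dusp1 and Dusp4 by 1.02. The nearest gene to Dusp1 was Cd93, a transmembrane receptor of endothelial and myeloid cells, at 0.0355. Cd93 had 1.69 and 1.86 RPM in ischemia with eugenol, 2.09 and 1.63 RPM in ischemia with DMSO, 6.92 and 5.79 RPM in normoxia with eugenol, and 6.22 and 6.84 RPM in normoxia with DMSO. Both ischemia groups of Cd93 lay below both normoxia groups, as for Dusp1, which the search itself selects for. At these low levels the added 0.5 RPM narrows the fold differences of Cd93 more than those of Dusp1. How near the 2 genes are without it was not tested.

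Nearest to Spry1 was Actc1, the cardiac actin gene, at 0.0713. Actc1 averaged 6536 ± 503 RPM in ischemia with eugenol, 7426 ± 236 RPM in ischemia with DMSO, 19290.3 ± 649 RPM in normoxia with eugenol and 19946 ± 811 RPM in normoxia with DMSO (SD, n = 2 each). Nearest to Dusp4 was Zfand2a, an arsenite-inducible zinc finger gene, at 0.0588, with 42.1 and 42.9 RPM in ischemia with eugenol, 40.9 and 32.3 RPM in ischemia with DMSO, 27.4 and 26.8 RPM in normoxia with eugenol and 24.2 and 27.2 RPM in normoxia with DMSO. The lower library of ischemia with DMSO is replicate 2 for Zfand2a as for Dusp4, a likeness that the search itself selects for. The others were Mdp1 for Dusp5 (0.0629), Rhob for Dusp6 (0.125), Prdx4 for Spry2 (0.0469) and Vsig10 for Spry4 (0.0481). With 8 libraries and a large oxygen difference, many genes share such a course.

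The genes around the 10 were read from lists of the pathway, by the authors' deposited table for ischemia with DMSO against normoxia with DMSO. The median log2 fold change of all genes listed there was -0.27, and that of the 9 listed genes studied was -1.002. Only listed genes have a value, so the counts below describe those genes and are not a test of a list.

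Of 18 other genes of the dual-specificity phosphatase family, 9 were listed, with 4 called higher, 5 lower and a median of -0.59 in the authors' deposited table. Dusp27, a muscle member of the family, had 59.3 and 58.9 RPM in ischemia with DMSO, against 135 and 152 RPM in normoxia with DMSO, and Dusp3 had 71.9 and 68.0 RPM against 114 and 118 RPM. Dusp2, an inducible nuclear phosphatase best known from lymphocytes, was higher from a very low base, with 6.42 and 4.45 RPM in ischemia with DMSO, against 0.906 and 1.18 RPM in normoxia with DMSO. The log2 fold changes in the authors' deposited table were -1.28 for Dusp27, -0.73 for Dusp3 and 2.38 for Dusp2. The listed family members outside the 10 thus moved in both directions.

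Of 16 other feedback inhibitors of the Ras-ERK cascade, 10 were listed, with 5 called higher, 3 lower and a median of 0.47 in the authors' deposited table. Cblb, a ubiquitin ligase of activated receptors, had 97.6 and 105 RPM in ischemia with DMSO, against 39.6 and 41.0 RPM in normoxia with DMSO. Nf1 (90.8 and 95.2 RPM against 56.7 and 55.8 RPM) and Rasa2 (38.04 and 41.3 RPM against 20.4 and 23.0 RPM) both encode GTPase-activating proteins of Ras. The log2 fold changes in the authors' deposited table were 1.32 for Cblb, 0.72 for Nf1 and 0.87 for Rasa2, opposite in sign to those of the 3 Sprouty genes. The 3 called lower had the same sign as the Sprouty genes, with Rasal2 at -0.87, Pebp1 at -0.44 and Rasa1 at -0.35.

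**Figure D4:**
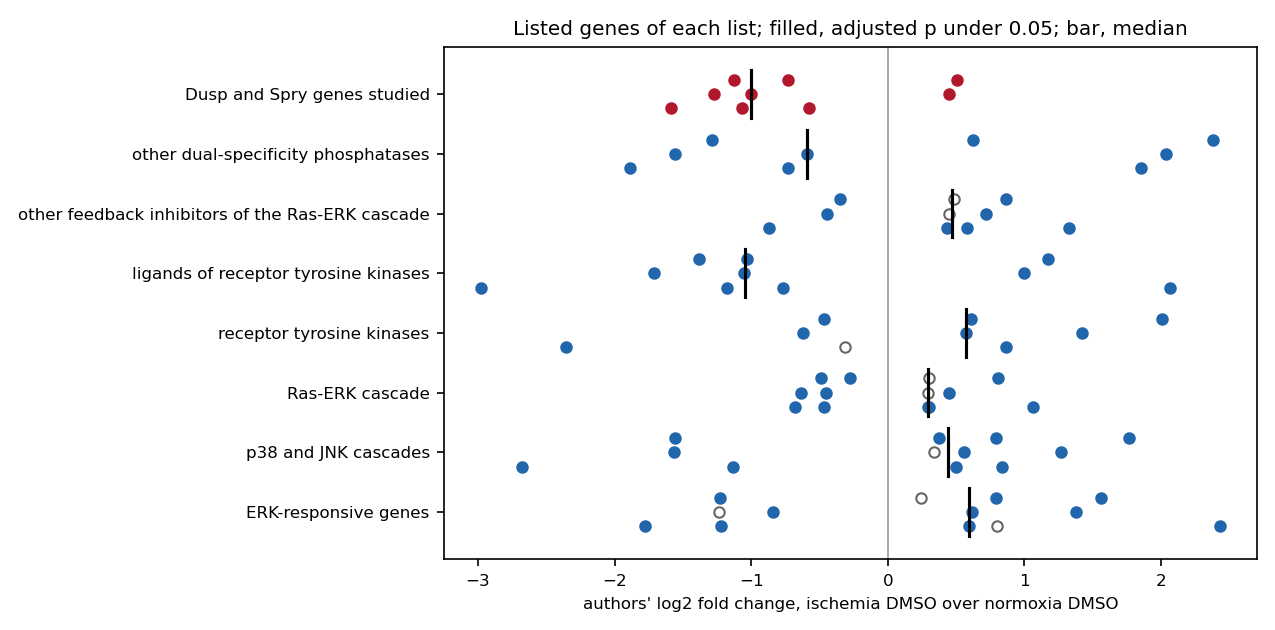
Log2 fold change of every listed gene of 8 gene lists, ischemia with DMSO over normoxia with DMSO, in the authors' deposited table. Filled points have an adjusted p under 0.05, open points do not, and black bars are medians of the listed genes. The medians are -1.002 for the Dusp and Spry genes studied, -0.59 for other dual-specificity phosphatases and 0.47 for other feedback inhibitors.

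Upstream, 10 of 21 ligand genes were listed, with 3 called higher, 7 lower and a median of -1.04 in the authors' deposited table. Of the 10 listed, all but Edn1 encode ligands of receptor tyrosine kinases. Tgfa, a ligand of the EGF receptor, had 40.6 and 35.0 RPM in ischemia with DMSO, against 8.70 and 9.33 RPM in normoxia with DMSO. Edn1, the endothelin precursor, had 12.5 and 11.9 RPM in ischemia with DMSO, against 28.8 and 34.4 RPM in normoxia with DMSO, and Fgf18 had 1.01 and 0.878 RPM against 7.98 and 6.90 RPM. Their log2 fold changes in the authors' deposited table were 2.07, -1.38 and -2.98.

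Of 14 receptor tyrosine kinases 9 were listed, with 5 called higher, 3 lower and a median of 0.57 in the authors' deposited table. Egfr had 38.2 and 35.6 RPM in ischemia with DMSO, against 9.37 and 8.95 RPM in normoxia with DMSO. Insr, the insulin receptor, had 239 and 240.2 RPM against 90.9 and 87.6 RPM, and Fgfr2, a receptor of fibroblast growth factors, 8.17 and 9.41 RPM against 43.0 and 46.6 RPM. The authors' deposited table gives 2.01 for Egfr, 1.42 for Insr and -2.36 for Fgfr2 on the log2 scale.

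Of 26 genes of the Ras-ERK cascade 13 were listed, with 5 called higher, 6 lower and a median of 0.30 in the authors' deposited table. The MEK genes split: Map2k1 had 291 and 264 RPM in ischemia with DMSO, against 142 and 122 RPM in normoxia with DMSO, while Map2k2 had 92.8 and 85.7 RPM against 139.8 and 145 RPM. Mapk3, which encodes an ERK, had 181 and 182 RPM in ischemia with DMSO, against 104 and 103 RPM in normoxia with DMSO. The log2 fold changes in the authors' deposited table were 1.07 for Map2k1, -0.68 for Map2k2 and 0.80 for Mapk3.

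Of 25 genes of the p38 and JNK cascades 12 were listed, with 7 called higher, 4 lower and a median of 0.44 in the authors' deposited table. Zak, a stress-activated kinase upstream of both, stood at -1.13, Map3k2 at 1.77 and Rps6ka5, a nuclear kinase downstream of p38 and ERK, at 1.27 on the log2 scale in the authors' deposited table. Of 22 ERK-responsive genes 13 were listed, with 6 called higher, 4 lower and a median of 0.60 in the authors' deposited table. Myc had 143 and 115 RPM in ischemia with DMSO, against 22.4 and 25.2 RPM in normoxia with DMSO, and Ccnd1, the cyclin D1 gene, had 72.4 and 58.3 RPM against 207 and 241 RPM. Srf, which encodes the factor bound by the CArG box, had 121 and 111 RPM in ischemia with DMSO, against 201 and 213 RPM in normoxia with DMSO. The authors' deposited table gives 2.43 for Myc, -1.78 for Ccnd1 and -0.84 for Srf on the log2 scale, so these ERK-responsive transcripts did not move one way.

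In the same table the markers of the cell types moved mostly downward. Of the listed markers, 9 of 10 for cardiomyocytes, 5 of 10 for fibroblasts, 5 of 7 for smooth muscle, 4 of 5 for endothelium and 6 of 7 for macrophages were called lower in the authors' deposited table, and 1, 2, 2, 0 and 0 were called higher. Those called higher were Myh7 for cardiomyocytes, Dcn and Vim for fibroblasts, and Pdgfrb and Des for smooth muscle. Of all 7694 listed genes, 3482 were called lower and 3231 higher. The falls of Dusp1, Spry1, Spry4, Dusp5, Dusp6, Dusp8 and Spry2 thus came together with more falls than rises among the called markers of each cell type. The part of cell composition in them was not tested.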

How the data were processed

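Total RNA of 8 libraries was prepared with the Illumina TruSeq kit, per the labels' protocols, and column codes of the 5 tables were assigned to the 4 groups from the table titles and labels. The read counts were deposited per gene. HISAT2, edgeR, DESeq2 and StringTie 1.3.3b appear in the submitters' processing notes with no role given, and the genome build and counting strand are not given in the sources used here. The deposited FPKM is per gene length and per megaread of 1 total per library. The normalised signal, deposited by the authors as count over size factor, was checked but not reported. Each log2 fold change and each p-value, raw and adjusted, is the authors' own, per the file headers. Values were copied from the authors' deposited tables, and the call was their adjusted p under 0.05.

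From the counts, edgeR 4.0.16 (quasi-likelihood test, R 4.3.3) was fitted to the 6582 genes with counts in all 8 libraries, with the 4 groups and the totals behind the FPKM as library sizes. Benjamini-Hochberg adjustment used the authors' number of genes where larger. These genes were listed for differing in some comparison, so the refit borrows its spread from selected genes. Alternatives were TMM, DESeq2 1.42.0 size factors and Wald test, a mean of at least 5 RPM, stricter thresholds, a replicate block, each library left out and 2 groups alone; the script was tested on simulated data. Genes named from each of 12 lists besides the members (194 symbols) were up to 3 called genes with the smallest adjusted p in ischemia with DMSO against normoxia with DMSO, or all where 5 or fewer were called. Promoter windows came from RefSeq (GRCr8). The members and lists were chosen with earlier results of these data known.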

Additional observations from a re-analysis of the deposited data

How the results depend on the processing

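Across the alternatives, 245 counts of called genes stayed within 1.5 times the value given and 11 did not. The 245 include the eugenol and interaction counts that were 0 and stayed at 0, which stricter thresholds could not change. The tally therefore does not measure how stable the oxygen calls are. With a fold of at least 2 besides the adjusted p, the genes called higher numbered 0 in each of the 3 oxygen comparisons, and those called lower numbered 3 both in ischemia with eugenol against normoxia with eugenol and in ischemia with eugenol against normoxia with DMSO. At an adjusted p under 0.01, 1 gene was called higher in ischemia with DMSO against normoxia with DMSO and 1 in ischemia with eugenol against normoxia with DMSO. Leaving out each library in turn, the genes called higher ranged from 0 to 2 in ischemia with DMSO against normoxia with DMSO, and from 0 to 1 among those with counts in all 8 libraries, with 0 when ischemia DMSO replicate 1 was left out. They ranged from 1 to 2 in ischemia with eugenol against normoxia with DMSO and from 0 to 1 in ischemia with eugenol against ischemia with DMSO. A group left with 1 library is assumed to vary like the others, and the cause of these moves was not tested. No share over all genes stands beside these counts, so they are not evidence about the genes as a set.

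The signs of uncalled eugenol values were not stable, with an edgeR adjusted p of at least 0.9 wherever one turned. In ischemia, leaving out each library gave -0.12 to 0.16 for Dusp1, -0.033 to 0.37 for Dusp4 and -0.19 to 0.11 for Spry4 on the log2 scale, and DESeq2 size factors gave -0.012 for Dusp1. In normoxia the ranges were -0.11 to 0.092 for Dusp1, -0.21 to 0.047 for Dusp5, -0.17 to 0.16 for Dusp6, -0.048 to 0.13 for Spry1, -0.17 to 0.037 for Spry2 and -0.13 to 0.091 for Spry4. For the interaction they were -0.11 to 0.16 for Dusp1, -0.13 to 0.27 for Dusp4, -0.18 to 0.029 for Spry2 and -0.16 to 0.14 for Spry4, with 0.012 for Spry4 under TMM. In ischemia Spry1 kept its sign, from -0.37 to -0.26, as did Dusp5 (0.12 to 0.58), Dusp6 (0.047 to 0.69) and Spry2 (-0.23 to -0.052). For Spry1, Dusp5 and Spry2 the ischemia libraries stood apart by treatment, so leaving out 1 could not turn the sign.

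The replicate numbers do not pair the samples in the labels, and deviations of same-numbered libraries correlated from -0.176 to 0.0733. With the replicate block, edgeR called 1 gene higher and 6 lower in ischemia with DMSO against normoxia with DMSO. It called 1 and 5 in both other oxygen comparisons, and 0 for eugenol or the interaction, as without the block. Of all 6582 genes it called 3094 higher and 3369 lower in the first comparison. In ischemia with eugenol it called 3085 and 3339 against normoxia with eugenol, and 3041 and 3308 against normoxia with DMSO. The 2-groups-alone fits with another scaling or a library left out were chosen after seeing the data. With 2 libraries a group, the eugenol difference of Spry1 in ischemia (-0.32) did not pass the adjustment.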
